A study of Drosophila melanogaster with 4 samples.

Results

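Mitochondrial ribosomal protein genes were followed across 4 arrays of Kc167 cells, a Drosophila melanogaster line of embryonic origin. The members are all genes whose current symbol is mRpL or mRpS followed by a number and that have a probe set of their own. They number 64 of 10844 genes on the array, 43 of the large subunit (mRpL) and 21 of the small subunit (mRpS), each read from its probe set with the highest mean log2 signal. Genes were taken by symbol, and signal entered only the choice of the probe set. Of 73 such symbols in the reference annotation, 9 had no probe set of their own: mRpL27, mRpL34, mRpL37, mRpL53, mRpS5, mRpS10, mRpS14, mRpS21 and mRpS23. All cultures were grown in serum-free CCM3 medium and kept for 72 h, either without hormone or with 10 µM muristerone A, an ecdysteroid that serves as an ecdysone analog, for which the word ecdysone stands below. Each culture then received 280 Gy of gamma rays or a mock treatment, and total RNA was taken after a rest of 90 min. The conditions are control (neither agent), ecdysone, irradiated (no hormone) and combined (both agents), with 1 array each and therefore no replicate of any value.

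The mitochondrial ribosome translates the few messages of the mitochondrial genome, which encode core subunits of the respiratory chain and ATP synthase. Its proteins are encoded in the nucleus, made in the cytosol and imported. Some have homologues in the bacterial ribosome and others were added in mitochondria, so the large subunit carries the peptidyl transferase centre and the exit tunnel of a bacterial ribosome under a different protein coat. Loss of these genes in Drosophila impairs growth and respiration, and tko, which encodes the small subunit protein S12, was found through a bang-sensitive behavioural mutant.

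Signals are the authors' MAS5 intensities in linear units, scaled here to a common trimmed mean. A floor of 119.4 units, the median of all signals, was applied before log2 differences were taken, since differences between signals below it carry little information. A treatment was measured in 2 pairs of arrays that share no array, and a single value for a treatment is the mean of its 2 log2 differences. The call rules were these: a fold of at least 2 in the same direction in both pairs, which is no test, and limma's additive model of both treatments with Benjamini-Hochberg adjustment over 5981 probe sets with a mean above the floor and a threshold of 0.05. The limma fit has 1 residual degree of freedom and borrows its spread from probe sets of like intensity (median prior of 29.4 degrees of freedom), so its p-values do not measure the spread between cultures. The arrays had median signals between 113.7 and 124.95 over all probe sets. Fluidics modules 1 and 2 and the earlier scans went to the irradiated and combined arrays, and modules 3 and 4 and the later scans to control and ecdysone, so irradiation and scan order cannot be told apart. Within each ecdysone pair the array with hormone had the higher module number and the later scan. Hormone and scan order within a pair therefore cannot be told apart either. Hemocyte genes, the lineage Kc167 cells are usually related to, were above the floor on all 4 arrays for 5 of 13 markers (srp, Hml, Pxn, Nplp2 and PPO1), and crq and lz were below it on all 4. None of the neuron, muscle or fat body markers with a probe set was above the floor on all 4 arrays, and aub and Cht2 were the members of the germline and epidermis lists that were. No neuron, muscle or fat body marker lay below the floor on all 4 arrays either. The median over fat body markers was 188, 396, 225 and 340 units in control, ecdysone, irradiated and combined. That over hemocyte markers was 197, 213, 117 and 187 in the same order, so the medians did not set hemocyte genes apart.

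The members gave signals of moderate size. Of the 64 genes, 33 were above the floor on all 4 arrays, 2 (mRpL4 and mRpL43) were below it on all 4, and 52 had a mean above it and entered the limma fit. The median member signal was 353 in control and 335 in irradiated, against 250 in ecdysone and 237 in combined. The 2 arrays with hormone were thus the lower ones in both pairs. The summed signal of the 64 genes was 24010 in control and 23970 in irradiated, against 18110 in ecdysone and 18060 in combined, while the sum over all genes was 3070000, 3251000, 3098000 and 3369000 in the same order of control, irradiated, ecdysone and combined. In these bulk samples fewer cells of a kind and less RNA per cell cannot be told apart. Probe sets differ in affinity, so signals of different genes do not rank their transcripts.

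**Figure D1:**
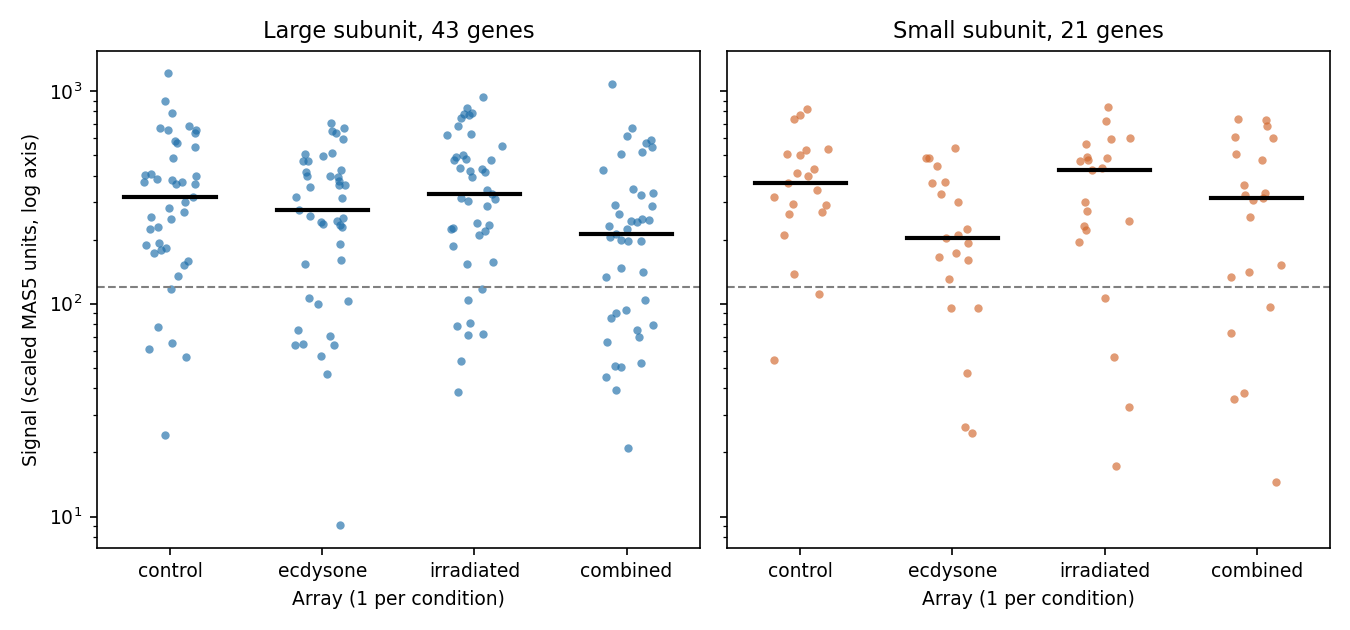
Signal of each mitochondrial ribosomal protein gene on each array (points, log axis, scaled MAS5 units) for 43 large and 21 small subunit genes, with the median as a black bar and the floor of 119.4 as a dashed line. The large subunit medians are 318, 275, 327 and 214 in control, ecdysone, irradiated and combined, and the small subunit medians 367, 204, 426 and 313.

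With ecdysone most members lay lower, and no single gene passed limma. The mean log2 difference was below 0 for 44 of the 64 genes and above 0 for 18, with a median of -0.39, while over all 10844 genes 42.6% were below 0 and 40.5% above, with a median of 0. Many of the latter lie at the floor. Among genes with a mean above it, 73.1% of 52 members were below 0, with a median of -0.42. Over all 4967 such genes 51.4% were below 0, with a median of -0.02. The median was -0.38 in the unirradiated pair (39 lower, 21 higher) and -0.39 in the irradiated pair (41 lower, 16 higher). Both arrays with hormone gave a lower signal than both without it for 21 members (32.8%) against 18% of all probe sets, and a higher one for 3 (4.69%) against 17.5%. No member passed limma: of the 52 tested, 0 rose, beside 1.44% of all probe sets tested, and 0 fell, beside 0.552%. The smallest adjusted p of a member was 0.303. An unadjusted limma p under 0.05 was found for 5 of the 52, all of them lower with hormone, beside 584 of the 5981 probe sets tested (9.76%). The 2-fold rule called 4 of the 64 genes lower (6.25%), beside 1.7% of all probe sets, and 0 higher, beside 2.26%. Many probe sets lie under the floor, where this rule can hardly call. Among genes with a mean above the floor it called 7.69% of members lower, beside 3.32% of all genes, and 0 higher, beside 4.37%.

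**Figure D2:**
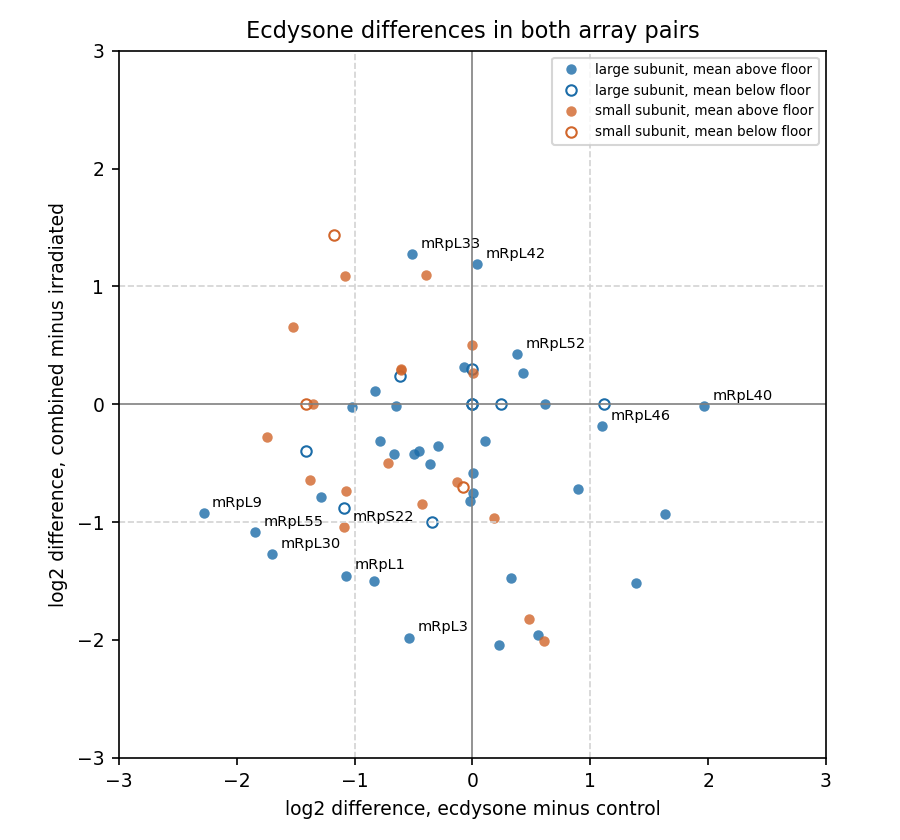
log2 difference with ecdysone for each of the 64 genes, in the unirradiated pair (x axis) and the irradiated pair (y axis), on floored signals. Dashed lines mark 2-fold, filled points have a mean above the floor, and the named genes are the 5 highest and 5 lowest mean differences and those past 2-fold in both pairs. More points lie at the lower left, where 27 genes were lower in both pairs, than in the upper right, where 4 were higher in both. Over all 10844 genes 1643 were lower in both pairs and 1546 higher in both.

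The subunits did not share the pair in which they lay lowest. For the 21 small subunit genes the median ecdysone difference was -0.61 without irradiation (16 lower, 4 higher) and -0.28 with it (11 lower, 8 higher). For the 43 large subunit genes it was -0.07 without irradiation (23 lower, 17 higher) and -0.40 with it (30 lower, 8 higher). Over both pairs the medians were -0.36 for the large and -0.43 for the small subunit, with 28 of 43 and 16 of 21 genes lower. With a floor at the 25th percentile of all signals they were -0.36 and -0.61. The middle of the large subunit, from the 25th to the 75th percentile, ran from -0.69 to 0.12 and that of the small subunit from -0.70 to -0.15, so the 2 distributions overlapped over most of their range. The difference between the subunits was not tested, since genes are not replicates of a condition.

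Among large subunit proteins, mRpL55, which has no bacterial counterpart, gave 682 units in control and 687 in irradiated, against 190 in ecdysone and 323 in combined. Both arrays with hormone lay below both without, a mean 2.76-fold difference (limma log2 difference -1.47 ± 0.57 SE, adjusted p = 0.303). The gene for mRpL9, a bacterial-type protein near the base of the L1 stalk, gave 580 and 499 without hormone and 74.9 and 263 with it, the first of the latter below the floor, so that the fold is at least 3.04. Its limma difference was -1.94 ± 0.77 SE with an adjusted p of 0.323. mRpL30 gave 387 and 477 without hormone and 70.5 and 198 with it, at least 2.80-fold lower, again with no overlap of the arrays (adjusted p = 0.479).

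mRpL1 encodes the protein of the mobile stalk through which spent tRNA leaves the bacterial ribosome. It gave 250 units in control and 327 in irradiated against 107 in ecdysone and 90.2 in combined, both below the floor, so it was at least 2.40-fold lower. For mRpL3, whose bacterial homologue reaches towards the peptidyl transferase centre, the signals were 173 in control and 471 in irradiated against 63.9 in ecdysone and 52.5 in combined. The arrays did not overlap, but the control value was low and the unirradiated difference of -0.54 stopped at the floor. The limma adjusted p was 0.726 for mRpL1 and 0.607 for mRpL3. Both entered the fit through their 2 arrays without hormone, so the size of their differences is partly a condition of being tested.

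mRpL45, related in mammals to the anchoring of the ribosome to the inner membrane, was above the floor on every array. It gave 567 units in control and 937 in irradiated, against 319 in ecdysone and 332 in combined, with no overlap and a mean 2.24-fold difference (limma log2 difference -1.17 ± 0.51 SE, adjusted p = 0.420). The 2-fold rule did not call it, because the unirradiated difference was -0.83. mRpS22, a small subunit protein without a bacterial counterpart, was the fourth gene called lower by that rule beside mRpL1, mRpL30 and mRpL55. It gave 367 and 246 units without hormone and 172 and 35.8 with it (adjusted p = 0.640).

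The genes with the strongest signals are those least touched by the floor, and their median ecdysone difference was -0.36, with -0.60 without irradiation and -0.02 with it. Of the 13 members with a mean above 4 times the floor, 10 lay lower on average, 7 of them in both pairs, and the mean differences ran from -1.17 to 0.61. mRpL23, whose bacterial homologue lines the rim of the exit tunnel, gave 1209 units in control against 594 in ecdysone, 625 in irradiated and 617 in combined. Its control array thus stood above 3 arrays that were alike, and the ecdysone difference was -1.03 without irradiation and -0.02 with it (limma adjusted p = 0.775). mRpL16, a neighbour of the peptidyl transferase centre in bacteria, followed a similar order with 900, 508, 621 and 669 in control, ecdysone, irradiated and combined. mRpL51 gave 658 and 789 without hormone and 468 and 588 with it, differences of -0.49 and -0.42 with no overlap (adjusted p = 0.832).

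In the small subunit the strongest signals came from mRpS7 and mRpS16, both of bacterial families, with mRpS18C and mRpS35. mRpS7, a protein of the head of the subunit, gave 818, 537, 601 and 738 units in control, ecdysone, irradiated and combined. mRpS16 gave 738, 485, 595 and 730 in the same order, so both genes were lower with hormone without irradiation and higher with it, by -0.61 and 0.29 for mRpS7 and -0.60 and 0.30 for mRpS16. mRpS35 gave 529 and 486 without and 483 and 309 with hormone (limma adjusted p = 0.894). The weakest probe sets had means under the floor and were not tested. mRpL48 gave 318 and 157 units without hormone and lay below the floor with it, at 9.10 in ecdysone, mRpL4 stayed between 53.9 and 103, and mRpS17 reached 194 at most, with 14.6 in combined.

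The stalk proteins recruit the translation factors that hydrolyse GTP. mRpL12, which in Drosophila has been tied to growth driven by cyclin D and Cdk4, gave 632 units in control and 776 in irradiated against 492 in ecdysone and 545 in combined. The arrays with hormone were below the others by 0.36 and 0.51 on the log2 scale, within the error of the fit (limma log2 difference -0.44 ± 0.45 SE, adjusted p = 0.852). mRpL11, at the stalk base, gave 407 and 302 without and 236 and 244 with hormone at its stronger probe set. Its weaker probe set, with a mean below the floor, had the opposite sign, with a mean difference of 0.91 against -0.55 at the stronger. The weaker probe set of mRpL12 was below the floor on all 4 arrays. mRpL10, which holds L12 on the ribosome, gave 364, 426 and 491 units in control, ecdysone and irradiated but 39.1 in combined.

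Fewer members lay higher with hormone, and the values of several turned on a single array. mRpL40 gave 78.1 units in control and 466 in ecdysone, then 234 and 231 in irradiated and combined, so that its difference was at least 1.97 without irradiation, where the control lay below the floor, and -0.01 with it. mRpL46 likewise stood at 645 in ecdysone against 301, 392 and 345 in control, irradiated and combined. mRpL33 had its low value of 38.3 in irradiated, with 230, 161 and 289 in control, ecdysone and combined.

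mRpL42 and mRpL52, both without bacterial counterparts, were the members above the floor on every array whose 2 arrays with hormone exceeded both others. mRpL42 gave 654 and 472 without hormone and 671 and 1077 with it, a limma log2 difference of 0.61 ± 0.43 SE (adjusted p = 0.726). mRpL52 gave 188 and 154 without and 245 and 206 with hormone (adjusted p = 0.941). The 3 remaining genes gave limma adjusted p-values of 0.740 (mRpL40), 0.887 (mRpL46) and 0.855 (mRpL33).

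With irradiation the members as a whole showed no common direction. The mean difference was below 0 for 32 of the 64 genes and above 0 for 30, with a median of -0.01. No member passed limma: of the 52 tested, 0 rose, beside 0.468% of all probe sets tested, and 0 fell, beside 0.0167%. The smallest adjusted p was 0.287. Of the 52 tested members, 3 had an unadjusted limma p under 0.05, beside 411 of the 5981 probe sets tested (6.87%). They were mRpS6, mRpS11 and mRpS29, all higher after irradiation and all of the small subunit. The 2-fold rule called 1 of the 64 genes higher (1.56%), beside 1.54% of all probe sets, and 0 lower, beside 1.3%. Among genes with a mean above the floor it called 1.92% of members higher, beside 3.20% of all genes, and 0 lower, beside 2.66%. The share of calls was thus near or below the background. Both irradiated arrays exceeded both others for 7 members (10.9%) against 16.6% of all probe sets and lay below them for 12 (18.8%) against 16.9%.

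**Figure D3:**
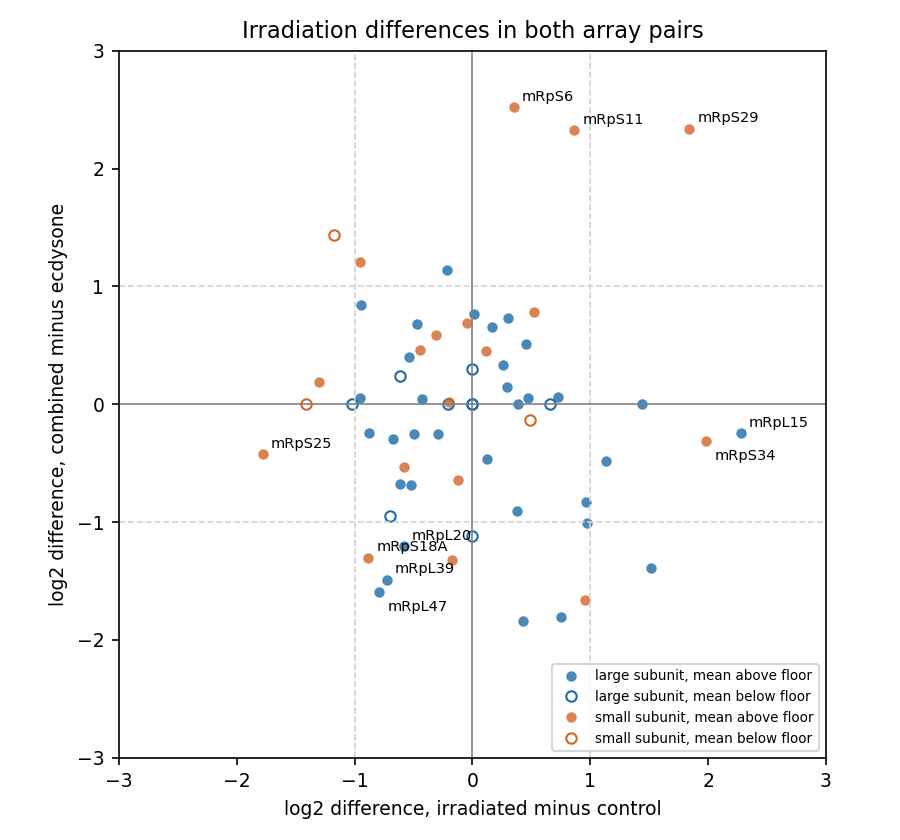
log2 difference with irradiation for each of the 64 genes without hormone (x axis) and with it (y axis), on floored signals. Dashed lines mark 2-fold, and the named genes are the 5 highest and 5 lowest by mean difference among those above the floor on average. mRpS29 lies past 2-fold on both axes, at 1.84 and 2.34, and mRpS6 and mRpS11 lie past it on the y axis.

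mRpS29 was the gene called by the 2-fold rule. It encodes a GTP-binding small subunit protein whose human homologue, DAP3, was named for a role in cell death. The signals were 54.7 in control and 26.2 in ecdysone, both below the floor, against 426 in irradiated and 604 in combined. The irradiated arrays exceeded the others at least 4.25-fold, and the limma log2 difference of 3.75 ± 1.25 SE had an adjusted p of 0.295. The gene entered the fit through its 2 irradiated arrays, so the size of its difference is partly a condition of being tested.

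mRpS11 encodes a protein of the small subunit platform, which holds the messenger RNA near the exit site. It gave 725 units in irradiated and 598 in combined, against 399 in control and 47.4 in ecdysone, the last below the floor. The arrays did not overlap, but the difference was 0.86 without hormone and at least 2.33 with it, where the ecdysone array was at the floor (limma adjusted p = 0.287). mRpS6, whose bacterial homologue sits on the same platform in contact with S18, gave 436 in irradiated and 685 in combined, against 342 in control and 95.9 in ecdysone. Its differences were 0.35 and 2.52, and the second likewise rests on an ecdysone value below the floor (limma adjusted p = 0.659). mRpL15 and mRpS34 completed the 5 largest increases with 769 and 473 units on the irradiated array, but their combined arrays gave 198 and 134, below 234 and 166 in ecdysone.

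Among the members that lay lowest after irradiation, none was past 2-fold in both pairs. mRpL47, the counterpart of bacterial L29 at the exit tunnel, gave 364 and 360 units in control and ecdysone and 210 and 75.6 in irradiated and combined (limma adjusted p = 0.820). mRpL39, a large subunit protein added in mitochondria, gave 373 and 376 against 225 and 134. Both genes had nearly equal signals on the 2 unirradiated arrays. mRpS25 gave 410 and 160 against 107 and 38.0, and mRpL20, which binds the large ribosomal RNA early in bacterial assembly, gave 179 and 275 against 104 and 93.5. In each of these 4 genes both irradiated arrays lay below both others, with limma adjusted p-values from 0.820 to 0.902. mRpS25 and mRpL20 entered the fit through their 2 unirradiated arrays, so the size of their differences is partly a condition of being tested.

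The 3 paralogs of bacterial S18 differed among themselves. mRpS18C gave 774 units in control and 836 in irradiated against 367 in ecdysone and 503 in combined, lower with hormone in both pairs by 1.07 and 0.73 on the log2 scale (limma adjusted p = 0.529). mRpS18A gave 502 and 374 in control and ecdysone against 272 and 152 in irradiated and combined, so that both irradiated arrays were lowest (adjusted p = 0.844). mRpS18B was above the floor only in control, at 317 units. In mammalian structures the homologues of mRpS18A and mRpS30 sit in the large subunit in spite of their names. mRpS30, whose human homologue was also described as a cell death protein, gave 263 and 299 in control and ecdysone against 233 and 96.7 in irradiated and combined (adjusted p = 0.910). Moving both genes to the large subunit left the ecdysone medians over both pairs at -0.37 for the large and -0.43 for the small subunit. In the single pairs the small subunit median became -0.71 without irradiation and 0.00 with it (9 lower, 8 higher). That of the large subunit became -0.07 and -0.42. The small subunit median with irradiation became -0.12 without hormone and 0.45 with it.

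By a grouping made from general knowledge of the protein families, which no table used here gives, 38 members belong to families shared with bacteria and 26 were added in mitochondria. With hormone 29 of the 38 shared genes and 15 of the 26 added genes had a mean difference below 0, with medians of -0.40 and -0.39. The unirradiated pair gave -0.41 and -0.07 and the irradiated pair -0.31 and -0.42. With irradiation the medians were -0.03 and -0.01. The 2 classes were therefore at nearly the same median ecdysone difference over both pairs, and in opposite order in the single pairs.

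How well the pairs of arrays repeated each other depended on the signal. The difference between the ecdysone effects of the 2 pairs had a median size of 1.36 on the log2 scale over the 17 members with a mean between 1 and 2 floors, 0.66 over the 22 between 2 and 4 floors and 0.67 over the 13 above. Over all probe sets in the same ranges the values were 0.93, 0.86 and 0.60. The ecdysone difference had opposite signs in the pairs for 24 of the 64 genes, was lower in both for 27 and higher in both for 4. Over all 10844 genes, many of them at the floor, these counts were 2737, 1643 and 1546. Among genes with a mean above the floor they were 22, 23 and 4 of 52 members, beside 2142, 1295 and 1243 of 4967 genes. The limma standard error of a member's difference ran from 0.42 (mRpL23) to 1.32 (mRpL3), with a median of 0.73. A 2-fold difference, 1 on the log2 scale, thus lies within 1 standard error only for the members with the larger errors. Lying beyond 1 standard error was not enough for a call, since mRpL55, at -1.47 ± 0.57 SE with ecdysone, had a limma adjusted p of 0.303.

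The genes that work with the mitochondrial ribosome are described from a list of 36 other mitochondrial translation genes, of which 26 had a probe set and 12 were tested. None rose or fell with either treatment in limma, and the 2-fold rule called 1 of the 26 lower with hormone (3.85%, beside 1.7% of all probe sets), 2 higher with irradiation (7.69%, beside 1.54%) and 1 lower with it (3.85%, beside 1.3%). The calls for irradiation were tko and AspRS-m, an aminoacyl-tRNA synthetase, higher and MetRS-m, another, lower. With hormone 14 of the 26 had a mean difference below 0 and 8 above, with a median of -0.10. mEFTs, the exchange factor of mitochondrial EF-Tu, gave 673 units in control and 400 in irradiated against 293 in ecdysone and 61.5 in combined, and the 2-fold rule called it lower (limma adjusted p = 0.332). Its partner mEFTu1 gave 641 and 585 without and 668 and 1003 with hormone. The mitochondrial ribosomal protein genes that carry other symbols are tko (S12, at the decoding centre) and bonsai (S15). tko gave 63.8 and 33.1 units in control and ecdysone, both below the floor, and 264 and 277 in irradiated and combined, and its mean kept it out of the test. bonsai gave 677 in control and 239, 209 and 188 in ecdysone, irradiated and combined (adjusted p = 0.808 for ecdysone and 0.846 for irradiation).

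The other mitochondrial lists lay nearer 0 with ecdysone when all their genes with a probe set were counted. Of 66 nuclear-encoded genes of the respiratory chain and ATP synthase, 41 had an ecdysone difference below 0 and 20 above, with a median of -0.14 that was -0.29 without irradiation and -0.03 with it. None passed limma for ecdysone, and ATPsynF, a subunit of ATP synthase, rose with irradiation (353 and 525 units against 1775 and 1481, limma adjusted p = 0.0133). The 37 genes taken by symbol as cytosolic ribosomal proteins had an ecdysone median of 0.00, with 18 lower and 18 higher. Their irradiation median was 0.34 against -0.01 for the mitochondrial ribosome, with none past limma for either treatment. This list includes RpL7-like, RpL22-like, RpL24-like and RpLP0-like, and 33 of its genes had a mean above the floor. The lists of mitochondrial DNA maintenance and transcription (11 genes with a probe set), import and chaperones (14) and regulators of mitochondrial gene expression (11) had ecdysone medians of -0.07, -0.11 and 0.00 and irradiation medians of -0.03, 0.10 and 0.00, and none of their members passed limma. In the first of these lists the 2-fold rule called mtSSB, which binds single-stranded mitochondrial DNA, lower with hormone (856 and 1327 units without it, 389 and 380 with it, 2.77-fold, limma adjusted p = 0.0947). It also called mTTF higher and SLIRP2 lower with irradiation, and in the second list it called Hsc70-5, a mitochondrial Hsp70 chaperone, higher. The shares of the first list were 9.09% for each of its 3 calls, beside 1.7%, 1.54% and 1.3% of all probe sets, and that of the second 7.14%, beside 1.54%. Among genes with a mean above the floor, the ecdysone median was -0.42 for the 52 members and -0.42 for 12 other translation genes. It was -0.50 for DNA maintenance and transcription (6 genes), -0.22 for import and chaperones (9) and -0.19 for the respiratory chain and ATP synthase (55). The regulators had 0.05 (6 genes). Of the 14 import and chaperone genes 11 lay lower and 2 higher, and all 9 above the floor lay lower. The comparisons of lists share all 4 arrays, and the differences between lists were not tested.

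**Figure D4:**
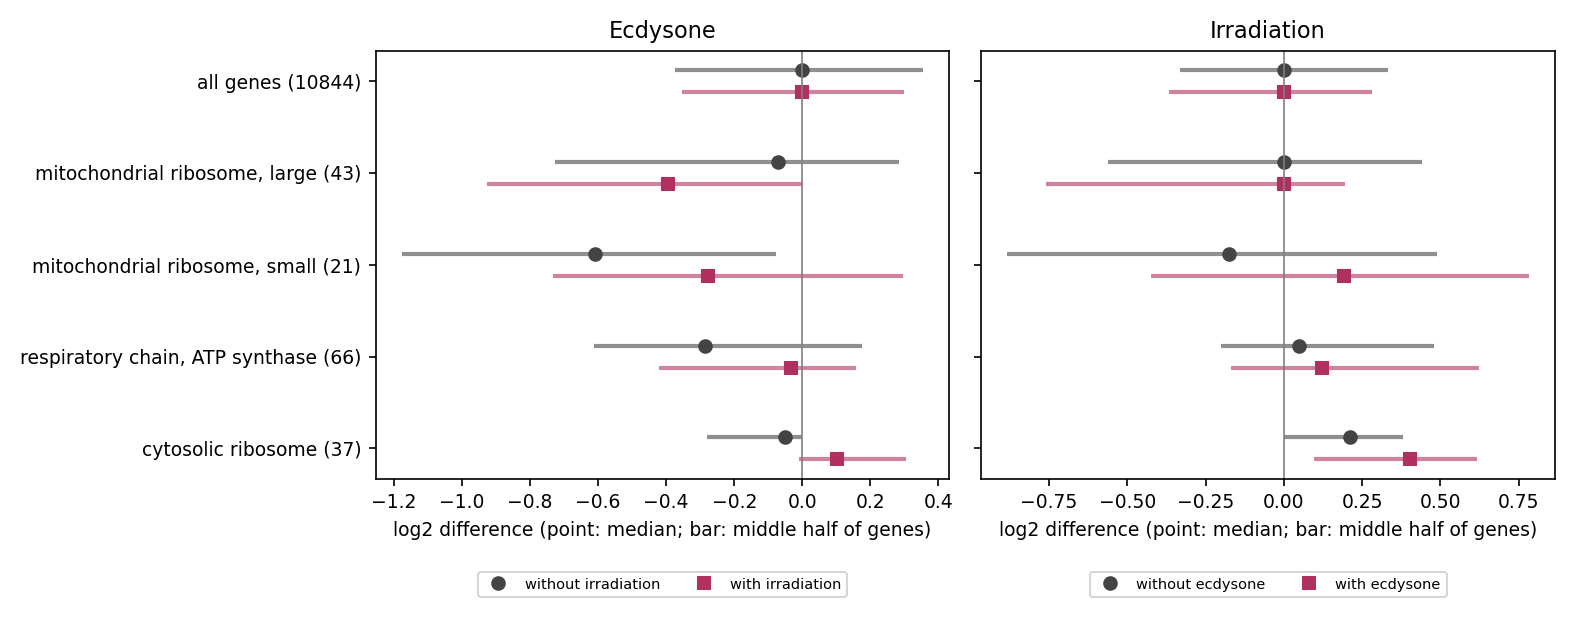
Median log2 difference (points) and the range from the 25th to the 75th percentile of genes (bars) in each array pair for all genes, the 2 subunits of the mitochondrial ribosome, the respiratory chain with ATP synthase and the cytosolic ribosome, with the number of genes in parentheses. With ecdysone the subunits of the mitochondrial ribosome have medians between -0.61 and -0.07, and with irradiation between -0.18 and 0.19.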

How the data were processed

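Expression was measured on Affymetrix DrosGenome1 arrays, 1 for each of 4 conditions. The deposited intensities were computed by the authors with MAS5, per the submitters' processing notes, with no version stated. The arrays share 1 chip lot and 1 scan day, per the file headers. Of 14010 probe sets, 44 controls were left out. Each array was scaled to a common trimmed mean (2% left out at each end), which moved no array by more than 0.0667%. Symbols came from the platform annotation and were updated through gene identifiers for 12394 probe sets, with 49 kept, 327 naming several genes and 1196 naming none. Log2 differences used signals raised to the floor, and limma 3.58.1 in R 4.3.3 (eBayes with an intensity trend) used unfloored log2 signals of probe sets with a mean above it. The limma fit was tested on simulated data. Other steps ran in Python 3.11.15 (numpy 2.4.6, pandas 2.3.3). With 1 array per condition the number of arrays limits the precision.

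Genes named are the members past either call rule, the 5 highest and 5 lowest by mean difference for each treatment among those above the floor on average, members with the strongest and weakest signals in each subunit, the 3 highest and 3 lowest by interaction, the stalk proteins with mRpL11, the S18 paralogs, mRpS29, mRpS30, tko, bonsai and members of the other lists that passed limma. mRpL45, mEFTs, mEFTu1, AspRS-m, MetRS-m, mtSSB, mTTF, SLIRP2 and Hsc70-5 were added after their values were seen. The members and lists were chosen with earlier results of these data known. The alternatives tried were other floors, quantile normalization, median scaling, unscaled deposited values, other fold thresholds, the mean over probe sets of a gene, other limma priors and another subunit assignment.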

Additional observations from a re-analysis of the deposited data

Results flagged for a closer look

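Some members moved in opposite directions in the 2 array pairs, which was not tested, since no residual remains for an interaction. Among genes with a mean above the floor this held for 22 of 52 members and for 2142 of all 4967 genes, a like share. The value given is the ecdysone difference with irradiation minus that without it, on the log2 scale. Over all genes it ran from -4.71 to 4.75. Signals below the floor enter it at the floor, so the values for mRpL21, mRpL54, mRpS28 and mRpS6 (95.9 units in ecdysone) are least sizes, and the mean of mRpS28 lies under the floor. The value was -2.91 for mRpL21, which was high in ecdysone (312 units) and irradiated (342) and below the floor in control (56.5) and combined (85.6). It was -2.61 for mRpS2 (291, 444, 565 and 141 units in control, ecdysone, irradiated and combined) and -2.56 for mRpL54 (135, 418, 227 and 79.1). The opposite order was seen for mRpS28 at 2.61 (270, 24.8, 17.2 and 323 units), for mRpS24, the counterpart of bacterial S3, at 2.17 (431, 204, 222 and 472) and for mRpS6 at 2.17. The small subunit median with irradiation was -0.18 without hormone and 0.19 with it, a difference of 0.37 that was not tested.

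A probe set shared by mRpS10 and CG34316, which belongs to no comparison because it names 2 genes, gave 294 units in ecdysone and 364.2 in irradiated, against 88.7 in control and 61.8 in combined.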

How the results depend on the processing

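No paired analysis by replicate number was possible because each condition has 1 array; the array pairs are those of the design. Of 142 comparisons of a result with an alternative, 132 kept their value (medians within 0.1 or the spread between pairs, counts within 1.5 times) and 10 did not. Agreement with the unscaled deposited values was near certain, since scaling moved no array by more than 0.0667%. The limma comparisons all set a count of 0 against a count of 0, so the tally is no measure of robustness. The count of members called lower with ecdysone by the 2-fold rule was 9 with the floor at the 25th percentile (14.1%, beside 5.28% of all probe sets) and 9 with no floor (14.1%, 7.36%). It was 2 with the floor at the 60th percentile (3.12%, 0.888%), 10 at 1.5-fold (15.6%, 4.95%) and 0 at 3-fold (beside 0.294%). For irradiation the count lower was 2 with the floor at the 25th percentile (3.12%, 4.76%), 2 with no floor (3.12%, 7.07%) and 5 at 1.5-fold (7.81%, 4.22%), and the count higher was 2 at 1.5-fold (3.12%, 4.08%). The large subunit median with irradiation was -0.17 with the floor at the 25th percentile. Lower floors admit weaker signals, and the fold thresholds change the rule itself. The number of members below 0 with ecdysone, an addition made after seeing the data, ran from 42 to 45 over 7 alternatives, with a median between -0.43 and -0.31. With ecdysone the small subunit median was -0.61 with the floor at the 25th percentile and with no floor, where the large subunit median was -0.36. This shift of the small subunit counted as kept because it lay within the spread between pairs. The small subunit median with irradiation ran from -0.09 to 0.18, so its sign depended on the setting. No member passed limma under any of 8 alternatives, with smallest adjusted p-values between 0.184 and 0.668 for ecdysone and between 0.126 and 0.846 for irradiation. Over all probe sets the fit called 119 for ecdysone and 29 for irradiation, against 75 and 6 with the floor at the 60th percentile, 56 and 4 with no floor, 83 and 6 under quantile normalization, 132 and 47 under median scaling and 0 and 0 without the trend, where 2 members for each treatment had an unadjusted p under 0.05. Median scaling moved the median irradiation difference of all tested genes from -0.005 to 0.067.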
